A study of Orestias ascotanensis with 42 samples.

Results

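Of the 21024 genes counted in Orestias ascotanensis, 198 genes (0.942%) made up a list of genes that were high in skin and in muscle relative to gills. Orestias ascotanensis is a killifish of the Ascotán salt pan in the Andes, where the fish live at 3740 m. The genes were chosen by their measured tissue levels. A gene belonged to the list when its mean level in skin and its mean level in muscle were each at least 8 times that in gills and differed from each other by a ratio of under 2. Levels for this choice were CPM, a library's counts scaled so that all libraries have the same total, averaged over the 14 libraries of a tissue, with 0.5 CPM added before ratios. The limit of 200 genes set on the list was not reached. In all, 307 genes passed the comparison with gills. Of those, 104 were at least 2 times higher in muscle than in skin and 5 were at least 2 times higher in skin than in muscle, which left the 198.

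The libraries were poly-A RNA of gills, skin and muscle from 14 wild fish, 7 netted in July 2019 (southern winter) and 7 in January 2020 (southern summer). By the labels, each fish gave 1 library of each tissue, so that there were 6 groups of 7. All were killed with tricaine methanesulphonate and their tissues kept in RNAlater, and the labels used here state no strain, genotype, sex or age. Each season was one collection in one year, and season, year and collection cannot be told apart.

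Gills are the surface through which a fish takes up oxygen and exchanges ions with the water. Skin is a barrier of epidermis over a dermis rich in collagen, and trunk muscle is built mainly of contractile fibres. A dissected piece of any of them holds several cell types, so a gene that is high in skin and in muscle and low in gills may belong to a cell type of either tissue or to cells that both contain. In such bulk libraries fewer cells of a type and less RNA per cell cannot be told apart. The files do not pair gene identifiers with names, so the roles of these genes are not given, no marker of a cell type could be matched, and the labelled tissues could not be checked against markers. CPM is not per gene length, and levels are compared mainly between libraries. Where genes are ranked or split by level, differences in gene length are not removed.

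Total counts were lowest in muscle summer 4, at 6074371, and highest in muscle summer 5, at 154396513. Of the 42 libraries, 3 stood apart from the rest of their tissue, namely skin summer 3, skin summer 4 and muscle summer 4. The winter muscle group was also mixed, which is described with its seasonal results. The season tag contradicts the title in 4 libraries, which are muscle winter 4, skin summer 7 and, in gills, winter 7 and summer 1, and the title was followed. Of the 126 pairs of libraries within a group, 12 pairs in 5 sets were near-identical in their counts (muscle summer 3, 5, 6 and 7, skin winter 2, 6 and 7, and in gills the winter pairs 2 with 7 and 3 with 6 and the summer pair 4 with 7). They were kept as separate samples because the labels give separate fish, and the tests of season, of season by tissue and of tissue were also run with every set averaged into 1 sample.

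The list filled a small share of the gill libraries and a large share of the others. In gills the 198 genes together took 0.250% ± 0.127 of the counts in winter (SD, n = 7) and 0.296% ± 0.0820 in summer. In skin they took 5.35% ± 0.732 in winter and 5.05% ± 0.857 in summer. In muscle they took 9.07% ± 1.65 in winter, with libraries from 7.07% to 10.9%, and 7.32% ± 0.561 in summer, from 6.46% to 8.06%. The groups of the 2 seasons overlapped in every tissue, while every skin library and every muscle library lay far above every gill library, as the choice of genes required.

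**Figure D1:**
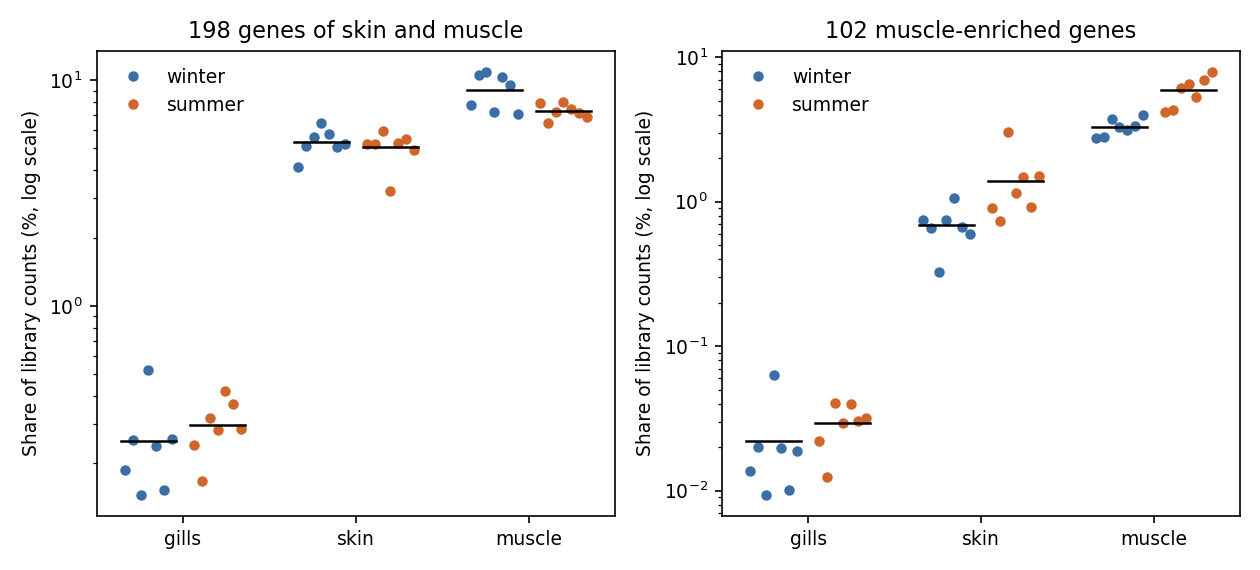
Share of each library's counts (percent, log scale) taken by the 198 genes (left) and by 102 muscle-enriched genes (right), by tissue and season. Points are libraries, 7 a group, and bars are group means. The 198 genes took 0.145% to 0.518% in gills and over 3% in every skin and muscle library, and the muscle-enriched genes did not overlap between seasons in muscle.

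Single genes of the list had mean levels of 0.00879 to 272 CPM in gills, with a median of 2.86. In skin the means ran from 5.15 to 5912 CPM with a median of 47.1, and in muscle from 4.66 to 10616 CPM with a median of 73.0. The median ratio to gills was 14.2 in skin (8.04 to 111) and 20.3 in muscle (8.20 to 193). These values chose the list and are a description without a test. In gills 39 of the genes were under 1 CPM and 7 had no count in at least 1 library, whereas 197 of the 198 had a count in every skin and muscle library. The 4 most abundant genes held 37.9% of the list's CPM in skin and 40.9% in muscle.

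At the edge of the rule, the gene with the smallest ratio to gills that was still inside it had 37.0 CPM in skin, 65.7 CPM in muscle and 4.17 CPM in gills, a ratio of 8.04. The first gene outside had a ratio of 7.97. Between skin and muscle, the last gene inside had a ratio of 1.996 and the first outside 2.02.

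The 2 most abundant genes had similar profiles. OAV3G000004059 had 98.9 CPM in the lowest and 514 in the highest winter gill library, with a median of 182, and 112 to 408 in summer gills with a median of 269 (CPM scaled within the tissue by TMM, a factor that lines up most genes between libraries). In skin its lowest, median and highest levels were 2839, 6121 and 6485 CPM in winter and 1954, 6353 and 8283 CPM in summer. In muscle they were 3704, 9712 and 27053 CPM in winter and 6927, 7308 and 8046 CPM in summer. The summer muscle libraries lay close together, and the winter muscle libraries spread on both sides of them. Muscle summer 3, 5, 6 and 7 were near-identical in their counts, and no winter muscle libraries were. OAV3G000018356 had 3604, 12958 and 24635 CPM in winter muscle and 7339, 9874 and 10841 CPM in summer muscle. In skin it had 2674, 5339 and 5982 CPM in winter and 3856, 5996 and 18217 CPM in summer, the last in skin summer 3, which stood apart.

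The likeness of skin and muscle depended on the scale. By column totals 169 of the 198 genes were higher in muscle and 29 higher in skin, and the median ratio of muscle to skin was 1.54 (0.506 to 1.996). Muscle libraries are dominated by few genes, since the 10 most abundant took a mean of 42.2% of the counts there against 16.7% in skin and 6.68% in gills. When the libraries were scaled by TMM over all 42, whose factors were 0.319 to 0.660 in muscle, 0.678 to 1.36 in skin and 1.64 to 1.86 in gills, all 198 genes were higher in muscle than in skin. The median ratio was then 3.42 (1.104 to 5.13), and 176 of the genes were at least 2 times higher in muscle. Over the 13543 genes with at least 1 CPM in each tissue, the median log2 ratio of muscle to skin was −1.24 by column totals and −0.08 by TMM. All 198 genes were at least 8 times higher in skin and in muscle than in gills on either scale, but the size of the ratio to gills moved, with a median of 19.0 in skin and 61.7 in muscle by TMM. The direction between skin and muscle did: the 29 genes higher in skin by column totals were higher in muscle by TMM. With TMM levels, 81 genes met the rule, and 22 of them were on the list, which is 11.1% of the list and 27.2% of the 81.

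**Figure D2:**
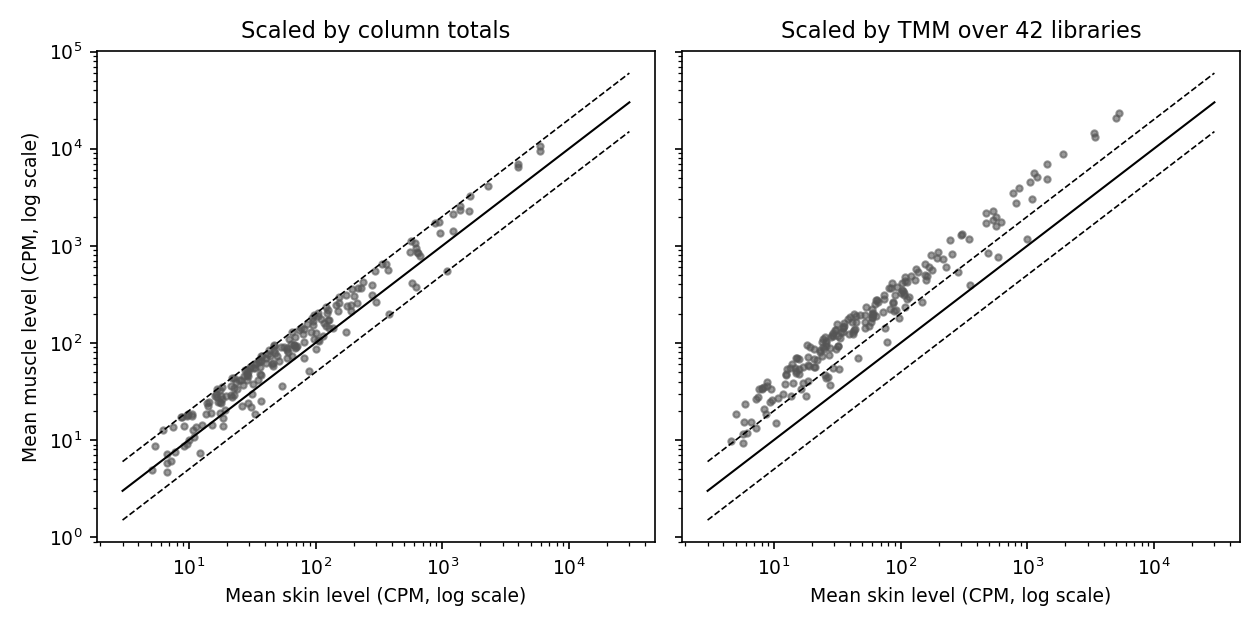
Mean level of each of the 198 genes in skin (horizontal) and in muscle (vertical), in CPM on log axes, over 14 libraries a tissue, scaled by column totals (left) or by TMM over 42 libraries (right). The solid line marks equal levels and the dashed lines a ratio of 2. By TMM all 198 genes lie above the solid line and 176 at or above the upper dashed line.

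The rule gave 183 genes with medians in place of means, of which 167 were on the list, and 185 genes without the 3 libraries that stood apart, of which 169 were on the list. It gave 188 genes from the winter fish alone and 190 from the summer fish alone. Of the 198 genes, 132 met the rule in each season by itself and none met it in neither.

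Genes chosen in one season kept their distance from gills in the fish of the other season, which had no part in the choice. All 188 genes chosen in winter fish were higher in skin than in gills in summer fish, and all 188 were higher in muscle than in gills (adjusted p under 0.05, edgeR's quasi-likelihood test). Over all genes tested, 27.3% were called higher in skin and 33.9% in muscle. The median log2 fold change over gills was 4.67 in skin and 6.33 in muscle. Of the 190 genes chosen in summer fish, 189 were tested in winter fish, and all 189 were higher in skin, where 28.3% of all genes were called, and in muscle, where 38.1% were. Their median log2 fold changes were 5.01 and 7.12. The p-values reflect how far these particular libraries scatter, at 1 library per fish and tissue.

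Nearly all of the genes were higher in skin and in muscle than in gills in every fish. The ratio of 8 to gills and the likeness of skin to muscle held in fewer. For 190 of the 198 genes every skin and every muscle library lay above every gill library, against 3.09% of all genes, a contrast that the rule itself had used. Within a fish, skin and muscle were both above gills in all 14 fish for 194 genes, and both at least 8 times higher in all 14 for 72 genes. These counts also rest on the contrast that chose the list, and the share of all genes is not given for them. Only 7 genes met the whole rule in all 14 fish by themselves, and the median gene met it in 9 fish. The fish also differed, with 75 of the genes meeting the rule in summer fish 4 and 153 in summer fish 2. In summer fish 4, whose skin and muscle libraries both stood apart, 126 genes were at least 8 times higher in skin than in gills, and in the other fish 143 to 196 were.

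The list varied more between fish than most genes did in gills. The coefficient of variation (CV, the SD as a percentage of the mean over 14 libraries) had a median of 43.6% in gills, against 24.4% for genes of like level there. In skin, with skin summer 3 and skin summer 4 included, it was 42.9% against 30.1%, and in muscle 31.2% against 29.8%. Genes of like level were those between the lower and upper quartile of the list's levels in that tissue, whereas the list was taken whole. In skin the steadiest gene was OAV3G000012205, with 5.85 to 7.86 CPM in winter and 6.13 to 7.56 CPM in summer. The most variable in skin was OAV3G000004553, with a median of 12.5 CPM in winter and 19.2 CPM in summer but 139 CPM in skin summer 3 and 92.7 CPM in skin summer 4, both of which stood apart. In muscle the steadiest was OAV3G000006894, at 165 ± 29.1 CPM in winter and 172 ± 16.2 CPM in summer (SD, n = 7). Near-identical libraries, such as muscle summer 3, 5, 6 and 7, count as separate samples in these measures of spread.

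One gene was on the list because of a single library. OAV3G000006022 had 95.8 CPM in muscle summer 4 and at most 1.80 CPM in the other 13 muscle libraries, and it had the highest CV in muscle, 354%. Without the libraries that stood apart its mean level in muscle was 0.339 CPM by column totals against 10.6 CPM in skin, so that it left the list. In skin it was uneven as well, with a winter median of 0.106 CPM and a winter highest of 22.4 CPM. Other genes also left the list without the libraries that stood apart, as 169 of the 198 stayed.

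In gills the libraries with more counts on the list also had more counts on genes of muscle. The comparison group was 102 genes at least 4 times higher in muscle than in both other tissues by column totals, none of them on the list. They took 0.00941% to 0.0628% of the counts in winter gills and 0.0125% to 0.0407% in summer gills, and none of the 102 was at 0 in every gill library, while 26 were at 0 in at least 1. Gills winter 4 held both the highest muscle-enriched share, 0.0628%, and the highest share of the list, 0.518%. Across the 14 gill libraries, in deviations from the season mean, the median gene of the list correlated with the level of the muscle-enriched genes at r = 0.87, and 174 of the 198 had an r over 0.5. The median over all genes was 0.04. By column totals the list's median was 0.86. With 172 skin-enriched genes the median r was 0.58. The libraries share their scaling and the list's own level, and the correlations are a description. The part of muscle-type RNA in the gill values was not tested.

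**Figure D3:**
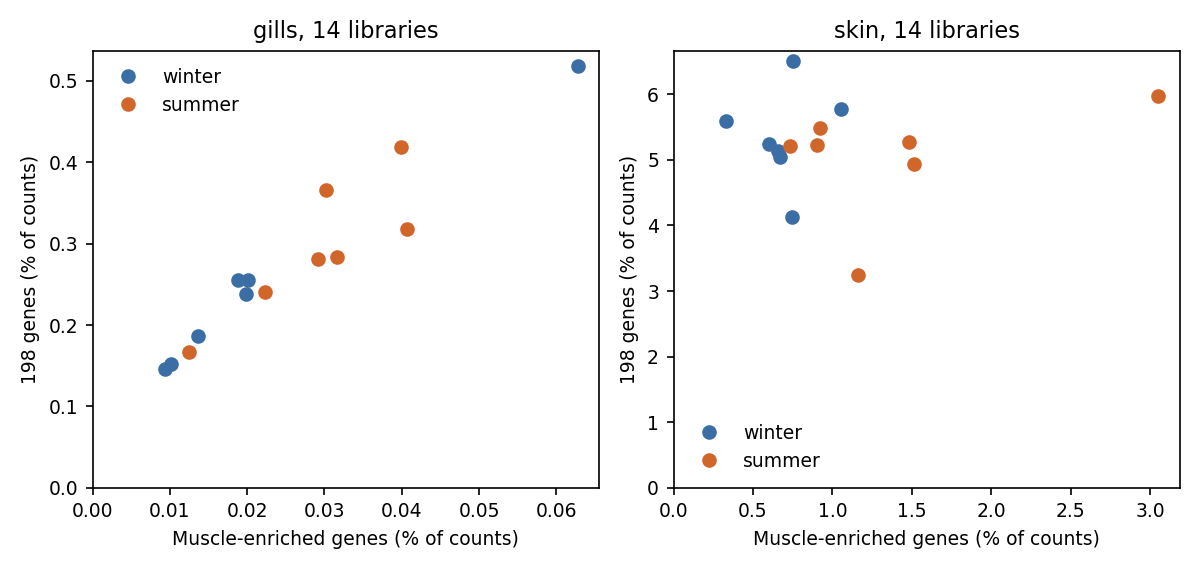
Share of counts taken by the 198 genes (vertical) against that of 102 muscle-enriched genes (horizontal), both in percent, in the 14 gill libraries (left) and the 14 skin libraries (right). Each point is a library. In gills the highest point, gills winter 4, is highest on both axes at 0.0628% and 0.518%, and in skin the library with the most muscle-enriched counts is skin summer 3 at 3.05%.

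In skin the list's r was lower than in gills and moved with the scale, as did that of all genes. The muscle-enriched genes took 0.329% to 1.06% of the counts in winter skin and 0.734% to 3.05% in summer skin. The median r of the list with their level was 0.64 by TMM and 0.27 by column totals, and 0.53 and 0.36 without the 2 skin libraries that stood apart. The medians of all genes were −0.04 and −0.43, and −0.07 and −0.39 without those 2 libraries. With the skin-enriched genes the list's median r was 0.53 by TMM and 0.13 by column totals, and 0.59 and 0.41 without those 2 libraries. Here the medians of all genes were −0.08 and −0.31, and −0.06 and −0.20. By TMM skin summer 3 was the highest of the 14 skin libraries for 131 of the 198 genes and skin summer 4 the lowest for 63, and by column totals these counts were 78 and 76. In muscle the list's median r with the muscle-enriched genes was 0.41 by TMM and 0.05 by column totals, against −0.01 and −0.22 for all genes. With the skin-enriched genes the list's median r changed sign with the scale, from −0.19 by TMM to 0.46 by column totals. The medians of all genes there were −0.08 and 0.55. The genes of the list also moved with each other in gills, where the mean r over pairs of its genes was 0.64, against 0.39 in skin, 0.23 in muscle and at most 0.02 over pairs of all genes by TMM. By column totals these were 0.62, 0.18 and 0.26, against 0.03, 0.13 and 0.25 over pairs of all genes. Between the skin and the muscle of the same fish the median r was 0.17 for the list and 0.22 for all genes by TMM, and 0.32 and 0.10 by column totals.

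The seasonal comparison asked whether the genes differed between summer and winter within a tissue, which the rule did not use. Muscle gave calls in both directions, and skin and gills gave none. In muscle 7 of the 198 genes were higher in summer, which is 3.54% of the list against 2.36% of all 17181 genes tested, and 14 were lower, 7.07% against 4.04% (adjusted p under 0.05, edgeR). In either direction it was 10.6% of the list against 6.4% of all genes. The 7 include OAV3G000006022, which was on the list because of its level in muscle summer 4. For that gene the choice and the call rest on the same library. The median log2 fold change, summer minus winter, was −0.21 for the list and −0.01 for all genes, with 127 genes lower and 71 higher. By column totals the list's median was −0.077 and that of all genes 0.04. On that scale 8 genes of the list were called higher and 7 lower. The share of all genes called on that scale is not given, so these 2 counts do not set the list against other genes. An unadjusted p under 0.05 was reached by 69 of the genes, 34.8% against 24.2% of all genes. Muscle-enriched genes took 2.76% to 3.98% of the counts in winter muscle and 4.18% to 7.92% in summer muscle without overlap, and their part in these differences was not tested.

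The gene with the smallest p was lower in summer. OAV3G000014067 had 170, 281 and 426 CPM in the lowest, median and highest winter muscle library and 82.1, 110 and 115 CPM in summer. The seasons did not overlap. It fell by 1.53 on the log2 scale (SE 0.22, adjusted p = 0.00508, edgeR). In skin its medians were 108 CPM in winter and 82.4 CPM in summer with overlapping groups, and in gills it stayed at or below 3.07 CPM.

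OAV3G000020613 had 175, 277 and 380 CPM in winter muscle and 118, 161 and 170 CPM in summer muscle, again without overlap. Its log2 fold change was −0.85 (SE 0.18, adjusted p = 0.0142, edgeR). In skin its libraries overlapped, with medians of 138 and 126 CPM.

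Among the genes higher in summer, OAV3G000003412 had 9.24, 11.2 and 23.3 CPM in winter muscle and 20.1, 36.2 and 40.2 CPM in summer muscle. The highest winter library, muscle winter 4, overlapped with the summer group. The log2 fold change was 1.35 (SE 0.22, adjusted p = 0.00544, edgeR). In skin it had medians of 22.0 CPM in winter and 30.7 CPM in summer, and the groups overlapped.

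OAV3G000009899 had 77.3, 85.0 and 123 CPM in winter muscle and 128, 157 and 190 CPM in summer muscle, with no overlap. It was higher by 0.82 on the log2 scale (SE 0.16, adjusted p = 0.0109, edgeR). In skin its log2 fold change was 0.82 as well but its adjusted p was 0.487, with 388 CPM in skin summer 3 and a summer median of 89.2 CPM.

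**Figure D4:**
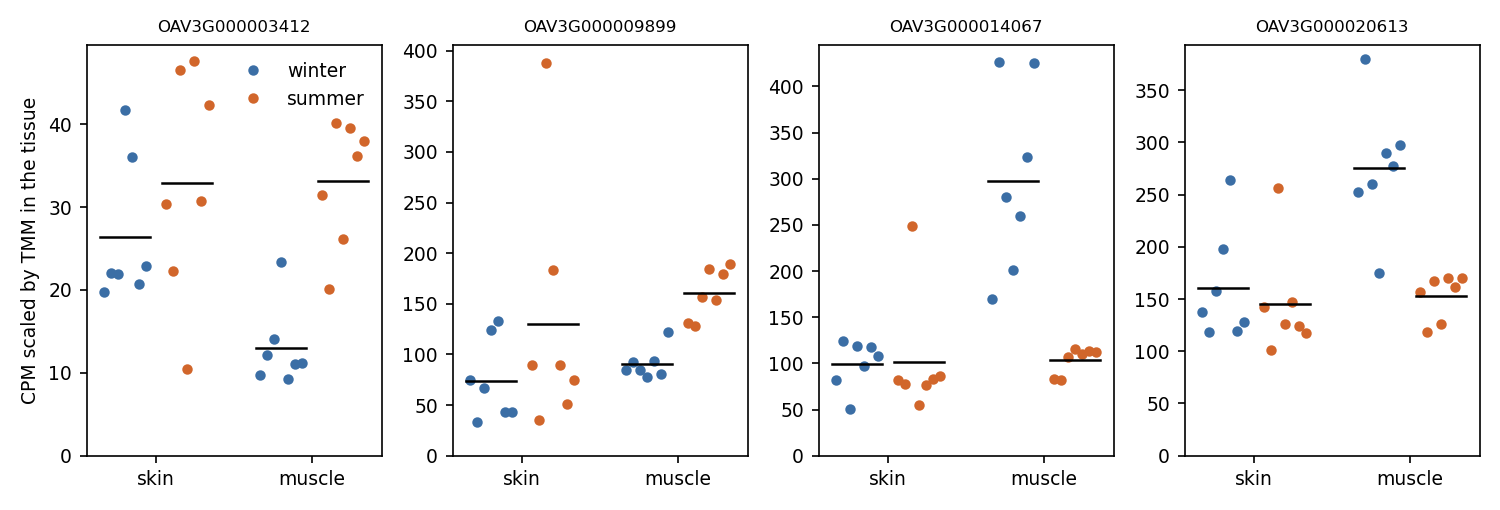
Levels of the 2 genes higher and the 2 genes lower in summer muscle with the smallest p in their direction, in CPM scaled by TMM within the tissue. Points are libraries of skin and muscle, 7 a group, and bars are group means. In muscle the seasons do not overlap for OAV3G000009899, OAV3G000014067 and OAV3G000020613.

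The 14 genes that were lower in summer muscle had log2 fold changes from −1.53 to −0.63, with a median of −0.91. In skin the same 14 had a median of −0.13 and 5 of them were above 0, and in gills all 14 were above 0 with a median of 0.24, none of which passed the test. Over the whole list 64.1% of the genes tested were above 0 in skin, with a median of 0.16. In gills 93.8% were above 0, with a median of 0.33, so there the 14 were like the rest of the list. The 7 genes higher in summer muscle ran from 0.61 to 6.93, the last being OAV3G000006022 with its single library. In skin 5 of the 7 were above 0 with a median of 0.82, and in gills all 6 that were tested were above 0. Without overlap between the seasons were 2 genes of the list that were higher and 5 that were lower, against 2.22% of all genes in either direction. In skin and in gills no gene of the list was without overlap, against 0.8% and 0.69% of all genes.

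Within the list, by TMM scaling, the lower summer values lay with the abundant genes. All genes were not split by level, so whether this is particular to the list was not tested. The list was split into 4 parts by the smaller mean of skin and muscle. In the most abundant part, 41 of 50 genes had a log2 fold change below 0 in muscle and the median was −0.36. In the next parts the medians were −0.21 and −0.15, and in the least abundant it was 0.07. The 22 genes that met the rule by TMM as well had a median of 0.46, with 5 of 22 below 0, against −0.28 and 122 of 176 for the rest of the list.

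These calls were not firm, and the winter muscle group was mixed. The TMM factors within muscle were 1.32 to 1.34 in muscle winter 1, 4 and 5 and 0.641 to 0.880 in muscle winter 2, 3, 6 and 7. By TMM over all 42 libraries the list summed to 114172 to 161477 CPM in the former and 221430 to 303437 CPM in the latter. In summer muscle it summed to 122069 to 152843 CPM. By column totals the 2 parts of the winter group overlapped. The list took 7.25% to 10.3% of the counts in muscle winter 1, 4 and 5. In muscle winter 2, 3, 6 and 7 it took 7.07% to 10.9%. The part of the mixed winter group in the seasonal calls was not tested. With the near-identical libraries averaged, no gene of the list passed the threshold in muscle, although all 21 kept their sign and had an adjusted p of 0.147 to 0.285 (edgeR). The 14 lower calls became 4 to 7 when any one of muscle winter 2, 6 and 7 or muscle summer 2, 3, 5, 6 and 7 was left out, and the 7 higher calls became 12 without muscle winter 3.

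In skin 0 of the 198 genes passed the threshold, as did 0 of all 18260 genes tested (0%, edgeR). DESeq2 and limma voom also called none of the list, and the share of all genes they called is not given. With quality weights per library limma voom called 26 genes of the list higher, 13.1% against 9.88% of all genes, and 10 lower, 5.05% against 9.53%. An unadjusted p under 0.05 was reached by 26 genes, 13.1% against 11.3% of all genes. The median log2 fold change was 0.16, with 127 genes above 0 and 71 below. It was −0.08 by column totals, where the median of all genes was itself −0.19, it was −0.05 without the libraries that stood apart and −0.01 without skin summer 3 alone. The smallest p among genes above 0 was that of OAV3G000019319, with 10.4, 12.6 and 21.4 CPM in winter skin and 14.9, 24.4 and 96.7 CPM in summer skin. The groups overlapped, the highest value came from skin summer 3, and the log2 fold change was 1.21 (SE 0.38, adjusted p = 0.438, edgeR). Among genes below 0 it was that of OAV3G000012547, with 25.2, 48.5 and 62.1 CPM in winter skin and 13.5, 29.0 and 37.4 CPM in summer skin, at a log2 fold change of −0.64 (SE 0.24, adjusted p = 0.438, edgeR).

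In gills 192 of the 198 genes had enough counts to be tested. The 6 that did not had at most 0.149 CPM there. None of the 192 passed the threshold, nor did any of all 18409 genes (0%, edgeR). DESeq2 and limma voom called none of the list, and the share of all genes they called is not given. With quality weights limma voom called 4 higher, 2.08% against 1.42% of all genes. In the edgeR fit 16 had an unadjusted p under 0.05, 8.33% against 14.5% of all genes. The direction was nonetheless shared by most of the list, with 180 of the 192 above 0, 93.8% against 50.4% of all genes, and a median of 0.33. The muscle-enriched share of gills was 0.0221% ± 0.0185 in winter and 0.0295% ± 0.00983 in summer (SD, n = 7), and its part in this direction was not tested. OAV3G000012800, with the smallest p, had 2.82, 3.55 and 6.13 CPM in winter gills and 3.70, 5.57 and 10.01 CPM in summer gills, with overlap and an adjusted p of 0.247 (edgeR). Because the 198 genes moved together within gill libraries, the 180 are not 180 separate observations.

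**Figure D5:**
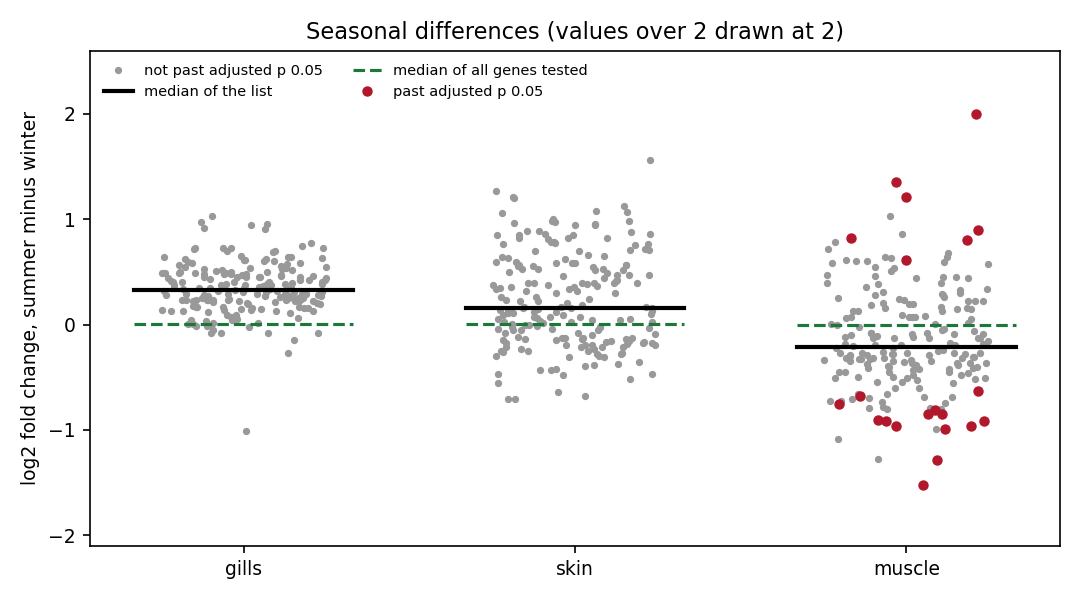
Log2 fold change, summer minus winter, of each gene of the list tested in gills (192), skin (198) and muscle (198). Red points passed an adjusted p of 0.05, the solid bar is the list's median and the dashed bar that of all genes tested. The medians of the list are 0.33, 0.16 and −0.21, and that in skin changes sign by column totals (−0.08, where that of all genes is −0.19) and without skin summer 3 (−0.01).

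The last comparison set the summer-minus-winter difference of one tissue against that of another. For skin against muscle, 5 genes of the list had a higher summer-minus-winter difference in skin, 2.53% against 4.35% of all 19258 genes, and 1 gene a lower one, 0.505% against 0.483% (edgeR). The lower one was OAV3G000006022, whose choice for the list and whose call both rest on muscle summer 4. In either direction 3.03% of the list and 4.83% of all genes were called. The median difference was 0.43 on the log2 scale for the list and 0.11 for all genes. By column totals the list's median was on the other side of 0 at −0.0088, where that of all genes was −0.19, and without the libraries that stood apart it was 0.12 against 0.01. For gills against muscle, 5 genes had a higher difference in gills, 2.53% against 2.06%, and none a lower one against 0.254% (27 genes of the list were below 0). In either direction 2.31% of all genes were called. The median was 0.57 against 0.08. For gills against skin none of the 198 was called, as was none of all genes (0%, edgeR), while 13 had an unadjusted p under 0.05, 6.57% against 3.78% of all genes. DESeq2 and limma voom called none of the list either, and the share of all genes they called is not given. With quality weights limma voom called 12 higher, 6.06% against 4.9% of all genes. In signs, 68 genes were above 0 in skin and below 0 in muscle, and 12 the other way round. The share of the list that was called was below that of all genes for skin against muscle and near it for gills against muscle.

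OAV3G000013843 had the smallest p for skin against muscle. In muscle it had 42.3, 83.1 and 120 CPM in winter and 27.4, 37.6 and 59.4 CPM in summer, and in skin 25.3, 28.8 and 40.4 CPM in winter and 28.8, 32.1 and 77.2 CPM in summer. Its muscle levels were lower in summer with some overlap, and its skin levels were alike but for skin summer 3. The difference of the log2 fold changes was 1.35 (SE 0.35, adjusted p = 0.0186, edgeR), and without the libraries that stood apart it was 0.93 with an adjusted p of 0.0659. OAV3G000015575 had the smallest p for gills against muscle, with 138, 209 and 277 CPM in winter muscle, 70.3, 119 and 152 CPM in summer muscle, 4.06, 6.94 and 13.8 CPM in winter gills and 4.68, 9.33 and 11.3 CPM in summer gills. The difference was 1.32 (SE 0.33, adjusted p = 0.0227, edgeR). The gene with a lower difference in skin was OAV3G000006022, at −6.81 (SE 2.06, adjusted p = 0.0458, edgeR), and it was −2.44 with an adjusted p of 0.433 without muscle summer 4. Its call was lost without any one of 13 of the 28 libraries.

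With the fish as a block, which pairs the tissues of a fish, the calls were 3 higher and 0 lower for skin against muscle and 8 higher for gills against muscle, and OAV3G000006022 was at −2.56 with an adjusted p of 0.626 (edgeR). For skin against muscle no gene was called without the libraries that stood apart, and 1 was called without muscle winter 2 or without skin summer 3 alone. It was 3 without any one of muscle winter 3 and 6, muscle summer 2 to 7, and skin winter 1, 3, 4 and 6. For gills against muscle the 5 calls became 0 without muscle winter 2, 1 without gills winter 1, 3 or 6, 3 without gills summer 3, gills summer 5 or muscle winter 6, 8 without gills summer 2, 15 without muscle winter 1 or 4, and 26 without gills winter 4. The share of all genes called in each of these fits is not given, so the counts show only how the list's calls moved.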

How the data were processed

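The authors deposited 1 table of raw read counts per gene, 21024 genes by 42 libraries, and all of its columns were used. Among its values from 1 to 10, 75.8% were even, and the reason was not tested. Per the labels' protocols, unstranded poly-A libraries were sequenced as 150 bp pairs, so reads of a gene and of one that overlaps it on the other strand cannot be separated, and values of near-identical gene copies are uncertain. HISAT2 2.2.1, SAMtools 1.10, Cufflinks, Trim Galore 0.6.6 and FastQC are listed in the submitters' processing notes. The build, the gene models and the counter were not given in the sources used here.

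Groups follow the sample titles. R 4.3.3 with edgeR 4.0.16 was used for the main tests (robust quasi-likelihood, TMM scaling, filterByExpr, two-sided, Benjamini-Hochberg over all genes tested, threshold 0.05), within a tissue for season, over all 42 libraries for interactions, and over the libraries of 1 season for tissue differences. The SE printed with an edgeR result is the absolute log2 fold change divided by the square root of the test's F statistic. limma 3.58.1 and DESeq2 1.42.0 were alternatives. The scripts were tested on simulated data. Near-identical libraries had a median absolute deviation of the log2 count ratio under 0.15. The 3 libraries that stood apart were taken as such from an earlier look at these data. Muscle- and skin-enriched genes are at least 4 times higher there than in both other tissues by column totals.

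The members and lists were chosen with earlier results of these data known. Named genes are the 2 of highest smaller mean in skin and muscle, the smallest p per direction and comparison (2 where at least 2 passed), and the lowest and highest CV in skin and in muscle. At most 2 identifiers per direction are printed. The labels give each fish's number across its 3 tissues. Deviations of 13543 genes from the group mean were correlated between tissues of the same fish. The mean r was 0.157 for skin and muscle, 0.222 for gills and skin and 0.0957 for gills and muscle. For skin and muscle, r was highest with the fish's own library in 6 of 14 fish. For gills and skin this held in 6 fish, and for gills and muscle in 3. These values do not settle the labelled pairing. The counts within fish, the correlations between tissues and the fits with the fish as a block rest on that pairing.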

Additional observations from a re-analysis of the deposited data

Results flagged for a closer look

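A library was looked at when the gap between it and its nearest neighbour took an unusually large part of the range of its group of 7. Of 60 groups checked, 14 met this, and chance alone flags about 1 in 20 groups. Gills winter 4 was high in the share of the list (0.518%) and in OAV3G000004059 (514 CPM) and OAV3G000018356 (550 CPM), and by TMM over all libraries in OAV3G000015575 (8.10 CPM). Skin summer 4 was low in the share of the list (3.25%) and in OAV3G000004059 (1954 CPM). Skin summer 3 was high in OAV3G000018356 (18217 CPM), OAV3G000019319 (96.7 CPM) and, by TMM over all libraries, OAV3G000013843 (66.1 CPM) and OAV3G000016146 (24.6 CPM). Muscle summer 4 was low in OAV3G000018356 (7339 CPM) and high in OAV3G000006022 (179 CPM by TMM over all libraries). Muscle winter 4 was high in OAV3G000003412 (23.3 CPM) and muscle winter 7 in OAV3G000009899 (123 CPM).

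In the main fit the seasonal difference differed between tissues by the test of the difference itself for OAV3G000013843 (1.35 on the log2 scale, skin against muscle), OAV3G000006022 (−6.81, skin against muscle) and OAV3G000015575 (1.32, gills against muscle). None of these calls was firm. With near-identical libraries averaged their adjusted p was 0.145, 0.135 and 0.263 (edgeR). Without the libraries that stood apart it was 0.0659 for OAV3G000013843 and 0.485 for OAV3G000006022 (edgeR).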

How the results depend on the processing

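The tissue differences in the fish of the other season kept every call, at 188 and 189 genes, under RLE scaling, DESeq2, averaging of near-identical libraries, the fish as a block and each library left out, and by column totals, which was added once the data had been seen. With no filter the second count was 190. The genes that met the rule numbered 81 by TMM over all libraries, 358 with a ratio of 4 and 75 with a ratio of 16. The median for season in skin changed sign by column totals (−0.0754, where that of all genes was −0.188, so the list stayed above it). It also changed sign without the libraries that stood apart (−0.0469, where that of all genes was −0.0294). The cause was not tested. With 1 library left out the median in skin ran from −0.00942 (without skin summer 3) to 0.30, in muscle from −0.30 to −0.13 and in gills from 0.23 to 0.57.

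For season in muscle (7 higher, 14 lower), DESeq2 gave 13 and 25, limma with quality weights 30 and 46, averaging 0 and 0, 1 fit of all libraries 4 higher, column totals 7 lower and the tag's season 24 lower. With 1 library left out the counts were 5 to 12 higher and 4 to 21 lower. In skin, quality weights gave 26 higher and 10 lower and 1 fit of all libraries 2 higher, and in gills quality weights gave 4. Leaving out 1 library gave 0 in both tissues. These are counts of the list alone. They show how far the calls moved with the setting and do not set the list against all genes.

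For skin against muscle (5 and 1), column totals, averaging and removal of the libraries that stood apart gave 0 and 0, limma voom 1 and 0, quality weights 33 and 3, the tag's season 12 and 0. No filter and removal of the contradicting tags gave 0 lower. For gills against muscle (5), DESeq2 gave 15, limma voom 2, quality weights 61, column totals 3, averaging 0, the tag's season 13, no contradicting tags 8 and no libraries apart 13. Quality weights gave 12 for gills against skin. Left-out libraries gave 1 to 7 and 0 to 1 for skin against muscle, 0 to 26 for gills against muscle and 0 for gills against skin. Here too the counts are of the list alone, without the share of all genes under each setting.

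The fish as a replicate block gave 3 and 0 for skin against muscle and 8 for gills against muscle. The individual number as a replicate block, which names different fish in the 2 seasons, gave 8 higher and 4 lower in muscle. Of the single genes' values under other settings, those with 1 library left out not counted, 152 stayed on their side of the threshold, 18 lost a call and 4 gained one. The 152 include values of genes that were not called in the main fit and so had no call to lose. The 18 fall only on genes that were called there. Muscle summer 4, at 6074371 counts, is the shallowest library.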

Other observations

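Among the named genes, 2 differed widely between fish of the same group and tissue, and they are singled out here after their values were seen. In skin, OAV3G000006022 had 22.4 CPM in the highest winter library and a winter median of 0.106 CPM, and 21.8 CPM in the highest summer library and a summer median of 4.39 CPM. In gills, OAV3G000003353 had 8.85 and 0.322 CPM in its highest and lowest winter libraries, with a median of 0.845 CPM, and 4.56 and 0.535 CPM in summer. Its seasonal log2 fold change in gills was −1.01 (SE 0.81, adjusted p = 0.593, edgeR). In muscle the same gene ran from 6.04 to 151 CPM in winter and from 11.0 to 39.4 CPM in summer.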
